A study of Homo sapiens and Mus musculus with 21 samples.

Results

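GSK126, an inhibitor of the histone methyltransferase EZH2, was compared with its vehicle DMSO in the human mesothelioma line H2810 across all genes of a deposited RNA sequencing count table. The 4 libraries, 2 with GSK126 and 2 with DMSO, were taken by their labels from the 21 libraries of the study. H2810 is an established line whose labels give pleura as the tissue and Bap1 wildtype as the genotype, in GSK126 and DMSO cells alike. Set beside it were 2 GSK126 and 2 DMSO libraries of H2731, a mesothelioma line labelled Bap1 mutated, and, from a separate experiment in H2810, 2 libraries with an shRNA against BAP1 and 2 with a random shRNA. Drug dose and treatment time are not given in the sources used here. Nothing in the labels says whether the 2 libraries of a group came from separate cultures, so p-values measure the spread between these libraries, which may be technical.

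EZH2 is the catalytic subunit of the Polycomb repressive complex PRC2, which methylates histone H3 at lysine K27 and keeps developmental genes silent in cells where they are not used. PRC1, the second Polycomb complex, reads that mark and places ubiquitin on histone H2A, and BAP1 with its partners (the PR-DUB complex) removes this ubiquitin. GSK126 competes with the methyl donor for the active site of EZH2, so it blocks the enzyme without removing the protein or its mRNA.

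Library totals were 19183548 and 19624788 counts with GSK126, and 17927837 and 21094616 with DMSO. Levels below are CPM, that is, counts scaled by the TMM-adjusted library size to a common total. Calls rest on edgeR's quasi-likelihood test over 15999 genes at an adjusted p below 0.05. The 2 DMSO libraries differed more from each other than the 2 GSK126 libraries did, with a chi-square per degree of freedom of 2.09 between the GSK126 libraries and 6.70 between the DMSO libraries. Mitochondrial genes took 3.46% and 2.84% of counts with GSK126, and 4.22% and 2.99% with DMSO. The libraries held mesothelial transcripts (CALB2, WT1, ITLN1, BNC1, KRT8 and KRT18), while the mesothelial markers UPK1B, LRRN4 and MUC16 had no counts and MSLN had few. The leukocyte markers CD3E, CD3D, MS4A1, AIF1 and TYROBP and the endothelial markers CDH5 and CLDN5 had no counts in any of the 4 libraries.

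GSK126 raised more genes than it lowered. It raised 2610 genes (16.3% of those tested) and lowered 2071 (12.9%). Counts of called members of gene lists below are to be read beside these shares. At least 2-fold, 471 genes (2.94%) were higher and 56 (0.35%) were lower. Many of these genes were low in the random shRNA libraries. At 0.1 to 1 CPM there, 192 were higher and 31 lower, and at 1 to 10 CPM 181 were higher and 17 lower. A fall is bounded by 0 counts, and low genes could be tested through the GSK126 group alone. Nothing is therefore read from 471 against 56. DESeq2 called 1570 genes higher and 1213 lower. The count of lower genes dropped to 1326 without GSK126 replicate 1 and to 1324 without GSK126 replicate 2.

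The share of large rises differed by the level of a gene in H2810, as measured in the 2 random shRNA libraries that took no part in the comparison. Among 696 genes under 0.1 CPM there, 6.03% were called higher by at least 2-fold, and among 2202 genes at 0.1 to 1 CPM 8.72% were. That share was 5.07% of 3571 genes at 1 to 10 CPM, 0.678% of 7380 genes at 10 to 100 CPM and 0.279% of 2150 genes over 100 CPM. Of genes over 100 CPM 38.7% were called lower, and of genes at 0.1 to 1 CPM 1.59% were. Low genes carry few counts and need larger changes to be called, so the shares of calls cannot be compared between levels without that limit. At 0.1 to 1 CPM, 229 genes were called higher and 35 lower. A fall is bounded by 0 counts and low genes could pass the filter through the GSK126 group, so nothing is read from that imbalance.

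**Figure D1:**
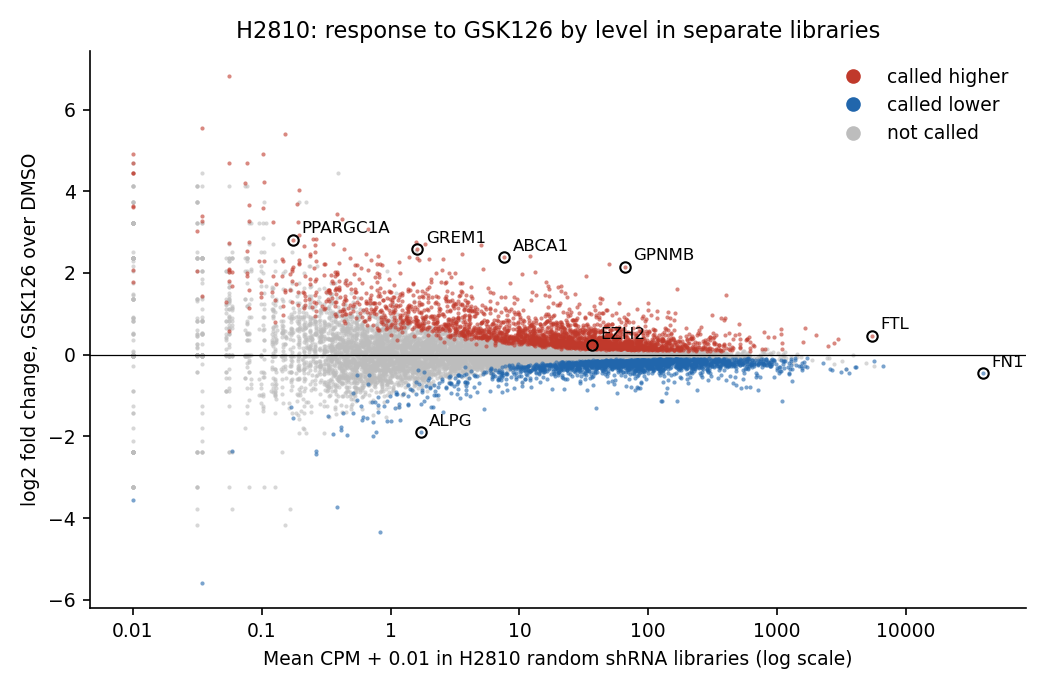
Log2 fold change of each tested gene in H2810 (GSK126 over DMSO, y axis) against its mean level in the 2 H2810 random shRNA libraries (CPM + 0.01, log scale, x axis). Red points were called higher, blue points called lower and grey points not called, and 8 genes of the text are circled; the red points reach furthest from 0 at low levels, and the blue points lie mostly at high levels. Genes with no counts in a group are drawn at their fitted value, which is no measure of fold.

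Protein-coding genes were called higher in 18.7% and lower in 14.8% of 13334 cases, and lncRNA genes in 4.35% and 3.79% of 1770. By autosome, the share called higher ran from 7.8% of 1128 genes on chromosome 19 to 24.2% of 592 genes on chromosome 4. Promoters rich in CpG are the usual sites of PRC2 in other cell types, so calls were also counted by the observed to expected CpG ratio of the RefSeq promoter window, from 250 bases before to 50 after the start, which 10784 protein-coding genes had. Genes with a ratio under 0.25 were called higher by at least 2-fold in 8.52% of cases, and those with a ratio over 1 in 1.56%. At 0.1 to 1 CPM the order was reversed, with 13.4% of 254 genes with a ratio under 0.5 and 18.0% of 494 genes above it. The higher levels kept the order. Shares were 11.1% of 361 and 5.19% of 1521 at 1 to 10 CPM, and 2.79% of 502 and 0.473% of 5498 at 10 to 100 CPM. Over 100 CPM they were 1.2% of 166 and 0.0631% of 1584.

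The mRNA of the drug's target changed little. EZH2 had 38.6 and 39.3 CPM with GSK126, against 33.5 and 32.8 CPM with DMSO, a log2 change of 0.23 ± 0.06 (SE, n = 2 each; adjusted p = 0.00315). Both GSK126 libraries lay above both DMSO libraries. Of 14 tested genes on the list of PRC2 subunits and partners, 3 rose (EZH2, EED at 0.21 ± 0.06 and EPOP at 0.25 ± 0.06) and 3 fell. The falls were PHF19, which helps PRC2 bind chromatin, at -0.44 ± 0.04, and the histone-binding subunits RBBP7 and RBBP4 at -0.11 ± 0.04 and -0.10 ± 0.04. EED was not called without GSK126 replicate 2 or without DMSO replicate 2, EPOP not without GSK126 replicate 2, RBBP4 not without any 1 of the 4 libraries, and RBBP7 not without GSK126 replicate 1, GSK126 replicate 2 or DMSO replicate 1. EZH1, the other methyltransferase of PRC2, had a log2 change of -0.11 ± 0.06 and the core subunit SUZ12 one of -0.05 ± 0.04, and neither was called.

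Other chromatin regulators moved by small amounts. PRC1 subunits were called higher in 21.7% and lower in 8.7% of cases, beside 16.3% and 12.9% of all genes. Of 23 PRC1 subunits, 5 rose, among them CBX6 (0.32 ± 0.04), CBX2 (0.47 ± 0.07) and BMI1 (0.31 ± 0.06), and 2 fell, of which at most 1 was called without GSK126 replicate 1, GSK126 replicate 2 or DMSO replicate 2. On the list of BAP1 and its PR-DUB partners, 3 of 10 tested genes fell: the scaffold ASXL1 (-0.22 ± 0.04), the glycosyltransferase OGT (-0.30 ± 0.05) and the transcription factor FOXK1 (-0.26 ± 0.06), which was not called without DMSO replicate 2, where 2 list members were called higher. Among 18 genes of H3K27 demethylases and opposing modifiers, the remodeller SMARCA2 rose (0.24 ± 0.05) and 2 methyltransferases fell, KMT2B (-0.24 ± 0.06) and ASH1L (-0.25 ± 0.08). The count of falls on that list was 8 without DMSO replicate 1, and neither KMT2B nor ASH1L was called without DMSO replicate 2, where 3 were called higher. ASH1L was not called without either GSK126 library.

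The 12 largest called rises, in genes whose mean log2 CPM reached 1, belonged to unrelated families. PPARGC1A, a coactivator that drives mitochondrial genes, had 4.10 and 4.11 CPM with GSK126, against 0.628 and 0.537 CPM with DMSO (log2 change 2.81 ± 0.24, adjusted p = 2.69e-08). GREM1, a secreted antagonist of bone morphogenetic proteins, had 3.06 and 4.26 CPM with GSK126, against 0.343 and 0.830 CPM with DMSO (2.59 ± 0.32). For both genes every GSK126 value was above every DMSO value, although the GREM1 libraries were further apart within each group. The lysosomal calcium channel MCOLN3 rose by 2.36 ± 0.25 and the stress cytokine GDF15 by 2.23 ± 0.23. The others were KIF26B, FAM180A, IGFN1, VWA5A, ABCA1, ERVFRD-1, PSG4 and UNC13A, with log2 changes from 2.31 to 2.76.

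Few rises started from silence. Of 477 tested genes with at most 1 count over both DMSO libraries, 17 were called higher, 10 of them with 0 DMSO counts. The highest was LRRTM4, an adhesion molecule of synapses, with 12 and 15 counts with GSK126 and 0 in each DMSO library. It was at least 8.78-fold higher at a floor of 3 counts over the DMSO group. XK, a membrane protein of red cells, had 7 and 9 counts with GSK126, against 1 and 0 with DMSO, a ratio of 15.6 (95% interval from 2.42 to 655, counting error only). GPC4, a heparan sulphate proteoglycan, had 5 and 7 counts with GSK126, against 1 and 0 with DMSO, a ratio of 11.7 (1.73 to 500). The others of the 8 with the most GSK126 counts were SUGCT-AS1, UBE2QL1, SNAP91, PLEKHG1 and HPD, with 11 to 23 counts over the GSK126 libraries. XK and GPC4 were not called without DMSO replicate 2, GPC4 and PLEKHG1 not without GSK126 replicate 2, PLEKHG1 not without DMSO replicate 2, and SNAP91 not without GSK126 replicate 1 or DMSO replicate 1. In the opposite direction, 2 of 381 genes with at most 1 GSK126 count were called lower. Genes this low in a group could pass the filter through the other group alone, as LRRTM4 did, having no counts in H2731 either. Nothing is therefore read from 17 against 2, or from the p-values behind these calls.

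Genes that rose stood next to each other in 21 places, counting runs of at least 3 neighbouring tested genes called higher with log2 changes of at least 0.5. Of all tested genes 16.3% were called higher, at any size of change. How many such runs calls scattered over the genome would give was not tested, so nothing is read from the number of runs. Among the longest, of 4 genes each, were LPCAT3, C1S, C1R and C1RL on chromosome 12 (log2 changes from 0.53 to 1.02), PSG4, CEACAMP10, PSG9 and CD177 on chromosome 19 (1.77 to 4.69, the top value being CEACAMP10 with 3 counts in each GSK126 library and none with DMSO), and 2 runs of protocadherins on chromosome 5. Runs of 3 included OAS1, OAS3 and OAS2, and SCG5, GREM1 and FMN1 (2.21 to 2.59). Neighbours of 1 family can share reads, and overlapping genes cannot be told apart where the strand setting of the counting is not known, so runs within a family are uncertain gene by gene. The call of CEACAMP10 was lost without any 1 of the 4 libraries, and that of CD177 without GSK126 replicate 2 or DMSO replicate 2.

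Clustered protocadherins, adhesion molecules that give neurons distinct surface identities, rose in many members of the cluster on chromosome 5. Of 32 tested, 16 rose and the other 16 were not called, with a median log2 change of 0.54, beside 16.3% called higher and a median of 0.00 over all genes. PCDHB5 had 3.17 and 2.74 CPM with GSK126, against 0.514 and 0.634 CPM with DMSO (2.34 ± 0.29, adjusted p = 3.86e-06). PCDHB13 had 12.5 and 11.9 CPM with GSK126, against 5.88 and 6.39 CPM with DMSO (0.99 ± 0.11). PCDHGC3, the most abundant member, had 48.8 and 50.7 CPM with GSK126, against 34.9 and 34.8 CPM with DMSO (0.52 ± 0.05). In these 3 genes the groups did not overlap. Between 11 and 14 members were called when 1 library was left out, and 6 in DESeq2. In H2731, 1 of the 32 was called higher with GSK126, beside 13.8% of all genes. The difference between the lines was called for 3 of the 32 (PCDHB5, PCDHB13 and PCDHGC3), beside 6.66% of all genes called more positive in H2810. So few called differences do not show a response of the cluster particular to H2810. The PCDHB13 difference was not called in DESeq2, nor without GSK126 replicate 1 or DMSO replicate 1.

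Many protocadherins went the other way when BAP1 was depleted in H2810. With the BAP1 shRNA, 22 of 28 tested protocadherins were lower than with the random shRNA, with a median log2 change of -1.46, beside 23.3% of all genes called lower in that experiment. Log2 changes there were -2.23 in PCDHB5, -2.03 in PCDHB8 and -1.07 in PCDHB13, and PCDHGC3, at -0.01, was not called. These shRNA libraries share no sample with the drug comparison.

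**Figure D2:**
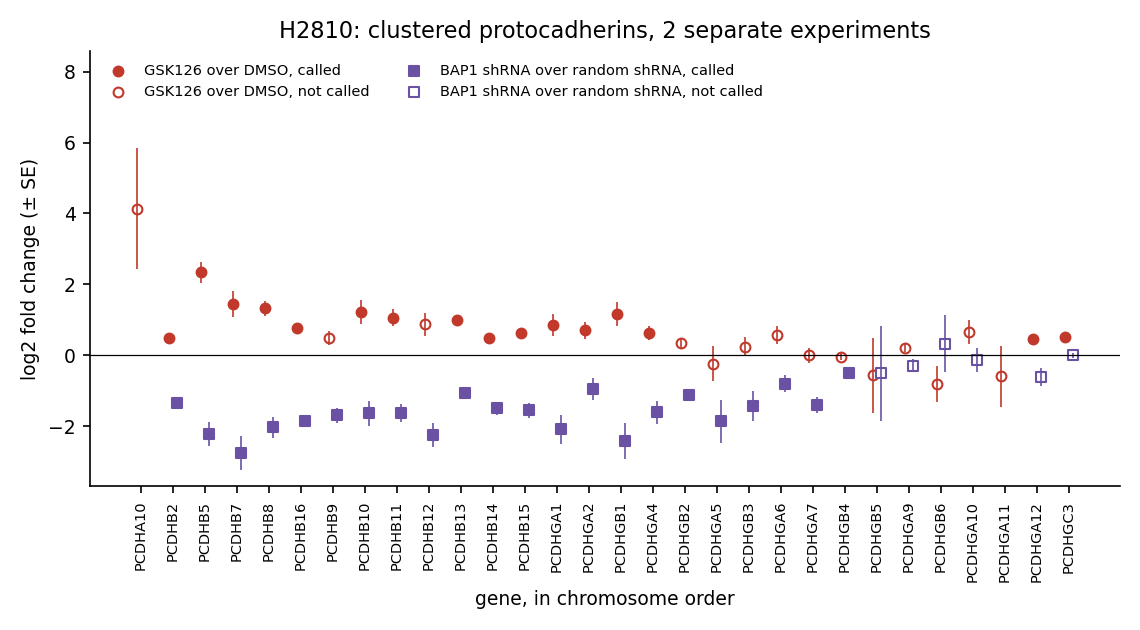
Log2 fold change (± SE) of the tested clustered protocadherins with counts in the H2810 drug libraries, in chromosome order, with GSK126 over DMSO (red circles) and with BAP1 shRNA over random shRNA (violet squares); filled symbols were called and open symbols were not. The filled circles lie above 0 and the filled squares below 0, and PCDHB5 shows the largest called rise with GSK126 at 2.34.

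Placental and retroviral genes were split. Of 17 tested pregnancy-specific glycoproteins and placental genes, 7 rose and 2 fell, with a median of 1.41. PSG4, a secreted glycoprotein of the placenta, had 23.9 and 23.5 CPM with GSK126, against 4.74 and 4.68 CPM with DMSO (2.33 ± 0.10). CYP19A1, the aromatase that makes oestrogen, rose by 1.78, and the retrotransposon-derived gene PEG10 by 0.67 ± 0.06. The 2 that fell were the alkaline phosphatases of placenta and germ cells, ALPP (-1.31 ± 0.05) and ALPG, with 2.08 and 1.52 CPM with GSK126, against 6.91 and 6.59 CPM with DMSO (-1.90 ± 0.20). PSG genes, and likewise ALPP and ALPG, are near copies of each other, so reads may have been split between them.

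Of 5 endogenous retroviral envelope genes, 2 rose: ERVFRD-1, which encodes the placental fusion protein syncytin-2, with 49.0 and 47.1 CPM with GSK126, against 9.42 and 9.56 CPM with DMSO (2.34 ± 0.09), and ERVMER34-1 (0.75 ± 0.25), which was not called without DMSO replicate 1 or either GSK126 library. Among 24 imprinted genes, 7 rose, including PEG10 and SGCE (0.57 ± 0.09), and 3 fell, MEST (-0.62 ± 0.03), PLAGL1 (-0.46 ± 0.04) and the growth factor IGF2 (-0.49), with a median of 0.18. Rises were 29.2% and falls 12.5% of imprinted genes, beside 16.3% and 12.9% of all genes. Of 7 tested cancer-testis and germline genes, 1 was called, the meiosis gene MEIOB, which fell by 0.59 ± 0.11 on the log2 scale.

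Developmental transcription factors other than HOX genes, the classical targets of PRC2, changed in both directions. Of 100 tested, 25 rose and 12 fell, with a median of 0.05, beside 16.3% and 12.9% of all genes. The count of rises was 15 without DMSO replicate 1, 16 without GSK126 replicate 2 and 11 in DESeq2. RUNX2, a regulator of bone formation, had 59.0 and 58.2 CPM with GSK126, against 34.1 and 35.3 CPM with DMSO (0.76 ± 0.06). TBX3, a T-box factor, rose by 0.60 ± 0.06. SOX9, a regulator of cartilage and epithelial progenitors, had 48.9 and 50.95 CPM with GSK126, against 76.0 and 77.5 CPM with DMSO (-0.62 ± 0.05), and the nuclear receptor NR2F1 fell by 0.48 ± 0.04. The larger rises on this list came at low levels, among them POU3F3 at 2.20, BARX1 at 1.80, NKX6-1 at 1.38 and PITX1 at 1.31. POU3F3 was not called without GSK126 replicate 2 or either DMSO library, and PITX1 not without DMSO replicate 1. Of 31 HOX genes, 3 rose, among them HOXB9 (0.49 ± 0.06) and HOXD13 (1.04 ± 0.25), and 4 fell, among them HOXB4 (-0.36 ± 0.07) and HOXB5 (-0.53 ± 0.14), with a median of -0.04. These HOX shares, 9.68% higher and 12.9% lower, did not exceed those of all genes. Without GSK126 replicate 2, 1 HOX gene was called higher and 1 lower, and 2 were called lower without DMSO replicate 2. HOXD13 and HOXB5 were among the calls lost without GSK126 replicate 2.

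Secreted signalling proteins of development followed. Of 24 BMP, activin and TGF-beta ligands and antagonists, 11 rose and 2 fell, with a median of 0.48, and the rises held antagonists as well as ligands: GREM1, CHRD (1.11) and NBL1 (0.61 ± 0.07) block BMP ligands, while GDF15 and INHBA (0.78) are ligands. The falls were TGFB2 (-0.27) and TGFB1 (-0.12), and TGFB1 was not called without GSK126 replicate 1, GSK126 replicate 2 or DMSO replicate 1. CHRD was not called without GSK126 replicate 1 or DMSO replicate 1. Of 18 Wnt ligands and secreted antagonists, 5 rose and 2 fell. SFRP1, a secreted Wnt antagonist, had 11.9 and 11.8 CPM with GSK126, against 4.40 and 3.90 CPM with DMSO (1.52 ± 0.11). SFRP4 rose by 1.09 ± 0.08 and WNT5B by 0.75 ± 0.14, whereas the secreted protein DKK3 fell to 428 CPM in each GSK126 library, against 746 and 761 CPM with DMSO (-0.82 ± 0.03). Of 11 FGF ligands and receptors, FGFR1 (0.26 ± 0.04) and FGFR4 (0.27 ± 0.09) rose and the growth factor FGF2 fell by 0.55 ± 0.04. FGFR4 was not called without GSK126 replicate 2 or either DMSO library.

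Of 18 genes of retinoid metabolism and response, 8 rose and 3 fell, and 1 fell without either GSK126 library. RDH10, which starts the conversion of retinol to retinoic acid, had 313 and 311 CPM with GSK126, against 130 and 131 CPM with DMSO (1.26 ± 0.04, adjusted p = 2.32e-14). CYP26B1, which degrades retinoic acid, rose by 1.25 ± 0.09, the receptor RARB by 0.46 ± 0.06 and the synthetic enzyme ALDH1A3 by 0.25 ± 0.03. Genes of synthesis, breakdown and response were thus all among the rises.

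Synaptic and neuronal genes rose in part. Of 48 tested synaptic and neuronal genes, 19 rose and 5 fell, with a median of 0.26. SCG2, a protein of secretory granules, rose by 1.74 ± 0.18, UNC13A, which primes synaptic vesicles, by 2.31 ± 0.24 and the vesicle motor KIF1A by 2.04. The synapsin SYN1 (-0.83 ± 0.08) and the adhesion molecule L1CAM (-0.51 ± 0.05) fell.

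Of 38 tested voltage-gated and related ion channels, 14 rose and 1 fell, with a median of 0.485, and 9 rose without GSK126 replicate 1. The fall was not called without GSK126 replicate 1 or DMSO replicate 2. KCNK2, a background potassium channel, had 4.88 and 4.31 CPM with GSK126, against 1.20 and 0.976 CPM with DMSO (2.08 ± 0.23). KCNE4 rose by 1.42 ± 0.15 and CACNA1C by 0.84 ± 0.10. Of 44 axon guidance ligands and receptors, 16 rose and 8 fell, with a median of 0.42. EFNB1, an ephrin ligand, had 54.7 and 58.0 CPM with GSK126, against 27.5 and 25.1 CPM with DMSO (1.10 ± 0.06), while the ephrin receptor EPHA2 fell to 103 and 102 CPM with GSK126, against 172 and 183 CPM with DMSO (-0.79 ± 0.04). The semaphorin SEMA3C and the semaphorin receptor PLXNA2 fell by 1.14 ± 0.04 and 0.67 ± 0.07 on the log2 scale. The falls on this list numbered 5 without GSK126 replicate 1 or without DMSO replicate 2. Of 16 muscle and sarcomere genes, 2 rose, among them the kinase MYLK (0.35 ± 0.06), and 3 fell, among them TPM2 (-0.37 ± 0.03) and MYLK3 (-1.33 ± 0.14).

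Endothelial genes were measured as markers of another cell type. Of 8 tested, 5 rose and 1 fell, with a median of 0.66, and 3 rose without GSK126 replicate 2, while the fall was not called without GSK126 replicate 1 or either DMSO library. KDR, a receptor for vascular endothelial growth factor, had 8.83 and 8.17 CPM with GSK126, against 3.60 and 3.46 CPM with DMSO (1.27 ± 0.14). ERG, an endothelial transcription factor, had 18 and 15 counts with GSK126, against 1 and 2 with DMSO (adjusted p = 0.000409). VWF rose by 0.91 ± 0.16 and TIE1 by 0.95 ± 0.26, the call for TIE1 being lost without GSK126 replicate 2, and the markers CDH5 and CLDN5 stayed without counts. Of 5 tested leukocyte markers, LCP1 was called higher (1.29 ± 0.42), a call lost without any 1 of GSK126 replicate 2, DMSO replicate 1 or DMSO replicate 2. Of 9 tested fibroblast markers, 5 rose, among them FAP (0.86 ± 0.07) and CXCL12 (0.73 ± 0.05), and 4 fell, among them PDGFRB (-0.36 ± 0.04). In bulk RNA, fewer cells of a type and less RNA per cell cannot be told apart.

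Most interferon-stimulated genes rose. Of 43 tested type I interferon-stimulated genes, 37 rose and 3 fell, with a median log2 change of 0.575, and between 33 and 36 rose when 1 library was left out. MX1, an antiviral GTPase, had 302 and 294 CPM with GSK126, against 128 and 120 CPM with DMSO (1.27 ± 0.04, adjusted p = 2.32e-14). MX2 had 119 and 121 CPM with GSK126, against 36.8 and 38.3 CPM with DMSO (1.67 ± 0.05). IFI6 had 692 and 689 CPM with GSK126, against 330 and 329 CPM with DMSO (1.07 ± 0.03). In these 3 genes the 2 libraries of a group lay close together and the groups far apart. OAS2, which senses double-stranded RNA, rose by 1.04 ± 0.04, STAT2, a factor that carries the interferon signal, by 0.64, and ISG15 by 0.98. The 3 that fell were HERC5 (-0.21), OASL (-0.17) and IFIT2 (-0.14, not called without GSK126 replicate 1). The interferon gene IFNB1 had 1 count in all, in a GSK126 library.

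The promoter window of MX1 is shown with its match to the interferon response element, searched on both strands as GAAA, any 2 bases, and GAAA again. It is chr21:41420308-41420607 of GRCh38.p14 in RefSeq, plus strand, and the capitals mark the match, which begins 12 bases after the start.
MX1: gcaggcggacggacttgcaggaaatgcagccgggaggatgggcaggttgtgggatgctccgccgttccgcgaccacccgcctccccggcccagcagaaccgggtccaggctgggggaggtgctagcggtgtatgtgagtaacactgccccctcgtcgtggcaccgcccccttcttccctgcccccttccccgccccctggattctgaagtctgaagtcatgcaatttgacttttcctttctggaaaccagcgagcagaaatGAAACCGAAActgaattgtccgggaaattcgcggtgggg
This motif was present in 22 of 34 promoter windows of the list (64.7%), beside 3.57% of the 35116 windows of the table and 2.84% of those of tested genes. Among list members that rose, 20 of 31 windows held it, and 2 of the 3 others did.

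Antigen presentation genes changed in both directions. Of 22 genes of MHC class I presentation, 13 rose and 3 fell, with a median of 0.27. HLA-F had 66.4 and 64.2 CPM with GSK126, against 34.9 and 36.9 CPM with DMSO (0.86 ± 0.05). B2M, the constant chain of class I molecules, rose by 0.49 ± 0.03, HLA-B by 0.50 ± 0.04 and HLA-C by 0.43 ± 0.04. The falls were PSME1 (-0.22), PSME2 (-0.19) and PDIA3 (-0.12, not called without either GSK126 library). Of 13 listed genes of MHC class II and its regulators, 2 were tested, and both were called higher at low levels. HLA-DPA1 had 2.03 and 2.08 CPM with GSK126, against 0.228 and 0.244 CPM with DMSO (3.08 ± 0.37), and HLA-DMA rose by 1.27 ± 0.26. A gene as low with DMSO as HLA-DPA1 could pass the filter through the GSK126 group alone. Nothing is therefore read about the class from these 2 genes. HLA genes are alike in sequence, and reads may have been split between them.

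Inflammatory genes did not move one way. Of 34 cytokines, chemokines and NF-kB genes, 9 rose and 8 fell, with a median of 0.00. TNFAIP3, which damps NF-kB, had 118 CPM in each GSK126 library, against 217 and 210 CPM with DMSO (-0.86 ± 0.04). The cytokine IL18 (-0.93 ± 0.06) and BIRC3 (-0.62 ± 0.04) also fell, while TSLP (1.82 ± 0.38), CXCL10 (1.40 ± 0.30) and the mitochondrial superoxide dismutase SOD2 (0.51 ± 0.03) rose. TSLP and CXCL10 were low, with means of 1.41 and 1.95 CPM with GSK126, against 0.391 and 0.729 CPM with DMSO. SOD2 had 1180 and 824 CPM. Of 21 complement and acute-phase genes, 9 rose and 3 fell. C1S, a protease that starts the classical complement pathway, had 224 CPM in each GSK126 library, against 111 CPM in each DMSO library (1.01 ± 0.04). Its neighbour C1R rose by 0.86 ± 0.04. The pattern recognition protein PTX3 fell by 0.75 ± 0.07. Of 17 fibrinolysis and coagulation genes, 9 rose and 1 fell. SERPINB2, an inhibitor of plasminogen activators, had 111 CPM in each GSK126 library, against 28.8 and 29.6 CPM with DMSO (1.93 ± 0.05). PLAT, the tissue plasminogen activator it blocks, was the gene that fell, with 43.6 and 41.6 CPM with GSK126, against 91.8 and 94.1 CPM with DMSO (-1.13 ± 0.05). PROS1 rose by 0.80 ± 0.06 and the thrombin receptor F2R by 0.44 ± 0.03.

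**Figure D3:**
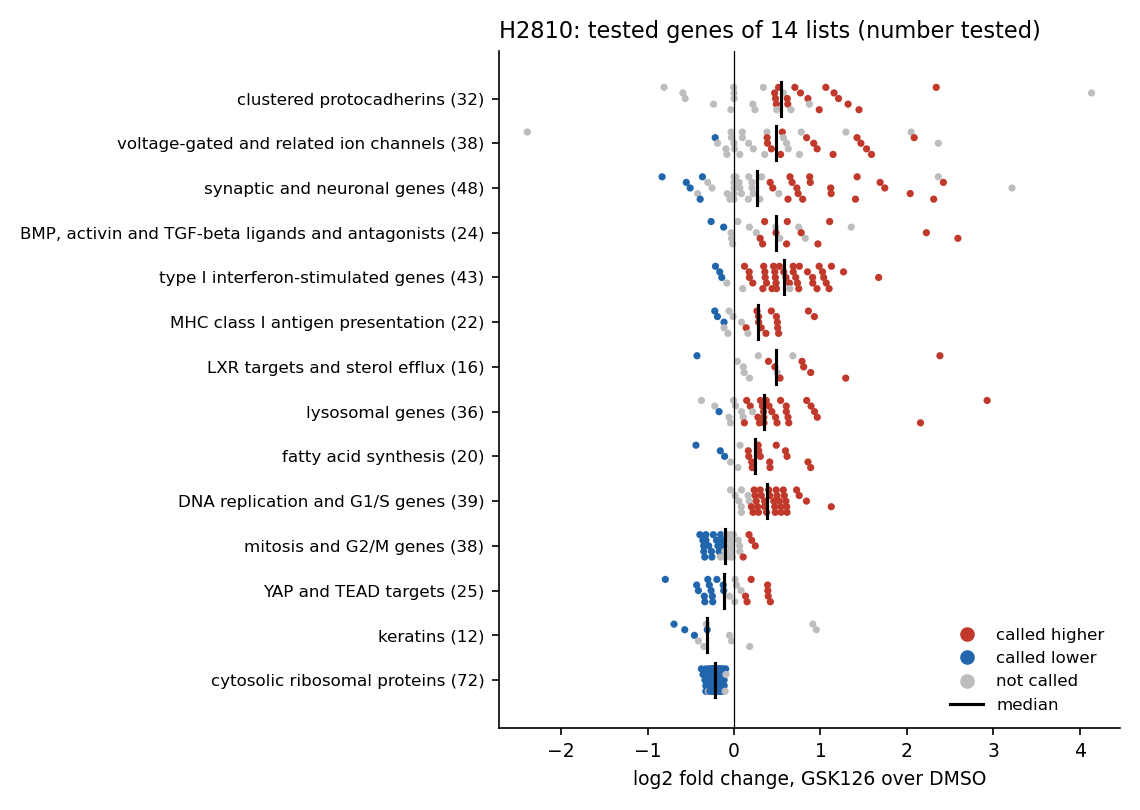
Log2 fold change (GSK126 over DMSO, x axis) of each tested gene of 14 lists in H2810; red points were called higher, blue points lower and grey points not called, and black bars are medians. Interferon-stimulated genes (37 of 43 called higher), replication genes (31 of 39) and lysosomal genes (26 of 36) lie mostly right of 0, and ribosomal protein genes (69 of 72 called lower) lie left of it.

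Part of the LXR and sterol efflux genes rose. ABCA1, the transporter that exports cholesterol from the cell and a target of the oxysterol receptors called LXR, had 28.7 and 29.2 CPM with GSK126, against 5.42 and 5.66 CPM with DMSO (2.38 ± 0.09, adjusted p = 3.46e-13). Of 16 tested LXR targets and sterol efflux genes, 8 rose and 1 fell, with a median of 0.49, and 7 were not called. SREBF1, the regulator of fatty acid synthesis, had 204 and 208 CPM with GSK126, against 113 and 123 CPM with DMSO (0.81 ± 0.05). LPCAT3, which remodels phospholipids, rose by 0.53 ± 0.05. ABCG1, a second efflux transporter, had 1 and 2 counts with GSK126, against 2 and 0 with DMSO. The lipid carrier APOD fell by 0.43 on the log2 scale and was not called without GSK126 replicate 1 or DMSO replicate 1.

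The ABCA1 promoter window was searched on both strands for the repeat to which LXR binds, written as GGTNA, any 5 bases, and GGTNA again. It is chr9:104928106-104928405 of GRCh38.p14 in RefSeq, minus strand, and the capitals mark the match, which lies on the opposite strand and begins 69 bases before the start.
ABCA1: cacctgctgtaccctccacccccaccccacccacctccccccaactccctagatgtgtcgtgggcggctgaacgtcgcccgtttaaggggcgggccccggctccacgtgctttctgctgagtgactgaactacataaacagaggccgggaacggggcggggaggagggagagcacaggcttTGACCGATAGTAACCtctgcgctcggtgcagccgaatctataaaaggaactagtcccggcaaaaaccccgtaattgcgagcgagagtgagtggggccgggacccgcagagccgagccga
Of 12 promoter windows of the LXR list, ABCA1 was the 1 with a match (8.33%), beside 0.626% of all windows and 0.457% of those of tested genes.

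Lipid synthesis genes rose in part. Of 20 fatty acid synthesis genes, 14 rose and 3 fell, with a median of 0.245, and 9 rose without GSK126 replicate 2. SCD, which makes monounsaturated fatty acids, had 1572 and 1588 CPM with GSK126, against 842 and 867 CPM with DMSO (0.89 ± 0.03). ELOVL7 rose by 0.86 ± 0.09, ACSL1 by 0.61 ± 0.05, FASN by 0.49 and FADS1 by 0.42 ± 0.03. Of 26 genes of cholesterol synthesis and SREBP2 targets, 10 rose and 3 fell, with a median of 0.08, and 1 fell without GSK126 replicate 1, GSK126 replicate 2 or DMSO replicate 2. STARD4 (0.78 ± 0.06), DHCR7 (0.62 ± 0.04), SC5D (0.59 ± 0.04) and INSIG1 (0.56 ± 0.04) rose.

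Most lysosomal genes rose. Of 36 tested, 26 rose and 1 fell, with a median of 0.34. GPNMB, a membrane glycoprotein of lysosomes and melanosomes, had the smallest p of all genes tested: 360 and 359 CPM with GSK126, against 79.6 and 81.5 CPM with DMSO (2.16 ± 0.04, adjusted p = 6.38e-18). The protease TPP1 had 470 and 462 CPM with GSK126, against 242 and 236 CPM with DMSO (0.96 ± 0.03). CTSA, the protective protein of lysosomal enzymes, had 599 and 603 CPM with GSK126, against 331 and 340 CPM with DMSO (0.84 ± 0.03). In all 3 genes the groups did not overlap. ASAH1, which degrades ceramide, rose by 0.93 ± 0.04, and the cathepsins CTSD and CTSB by 0.89 and 0.62. TFE3, a transcription factor of lysosomal genes, was the member that fell (-0.17, not called without DMSO replicate 2), and TFEB, another, had a change of 0.21 that was not called. Among abundant transcripts, the autophagy receptor SQSTM1 (0.66 ± 0.03) and the iron stores FTL (0.47 ± 0.03) and FTH1 (0.38 ± 0.03) rose as well.

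The CTSA promoter window is shown with its match to the element bound by factors of lysosomal genes, TCACGTGA, which reads the same on both strands. It is chr20:45891085-45891384 of GRCh38.p14 in RefSeq, plus strand, with the match in capitals beginning 26 bases before the start.
CTSA: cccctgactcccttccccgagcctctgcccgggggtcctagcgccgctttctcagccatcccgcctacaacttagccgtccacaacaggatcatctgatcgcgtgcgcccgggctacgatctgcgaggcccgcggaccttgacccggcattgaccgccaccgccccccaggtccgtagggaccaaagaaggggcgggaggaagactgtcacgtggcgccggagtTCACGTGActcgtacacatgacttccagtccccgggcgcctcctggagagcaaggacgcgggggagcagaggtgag
The motif was in 5 of 23 windows of the lysosomal list (21.7%), beside 0.98% of all windows and 1.84% of those of tested genes. Of list members that rose, 4 of 15 windows held it, and of the others 1 of 8 did. Among all genes called higher by at least 2-fold, 0.917% of windows held it.

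Most DNA replication genes rose. Of 39 tested DNA replication and G1/S genes, 31 rose and the other 8 were not called, with a median of 0.38. CDC6, which loads the replicative helicase, had 83.2 and 82.5 CPM with GSK126, against 50.2 and 50.1 CPM with DMSO (0.72 ± 0.04). CCNE2, a G1/S cyclin, had 23.2 and 23.1 CPM with GSK126, against 10.4 and 10.8 CPM with DMSO (1.12 ± 0.09). The helicase subunit MCM4 had 212 and 213 CPM with GSK126, against 150 and 146 CPM with DMSO (0.52 ± 0.04). DTL, which targets licensing factors for degradation, rose by 0.84 ± 0.06, and E2F1 and E2F2, activators of these genes, by 0.47 and 0.61.

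Of 38 mitosis and G2/M genes, 17 fell and 4 rose, with a median of -0.10, and 11 fell without GSK126 replicate 2. The cyclin CCNB2 had 34.7 and 35.2 CPM with GSK126, against 46.1 and 45.8 CPM with DMSO (-0.40 ± 0.05). ECT2 (-0.36 ± 0.04), KIF20A (-0.35 ± 0.04) and CDC20 (-0.35 ± 0.04), which act in cytokinesis and anaphase, also fell, and MKI67, a general marker of cycling cells, had a change of 0.06 that was not called. Without GSK126 replicate 1, 1 mitotic gene rose, and 2 rose without GSK126 replicate 2 or DMSO replicate 2. Of 6 CDK inhibitors, CDKN1A rose (0.34 ± 0.05) and 3 fell, CDKN1B (-0.27 ± 0.05), CDKN3 (-0.28 ± 0.07) and CDKN2C (-0.20 ± 0.06, not called without GSK126 replicate 2). Of 23 p53 targets, 3 rose, CDKN1A among them, and 5 fell, CCNG1 (-0.34 ± 0.04) among them, and 2 fell without either GSK126 library.

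The MCM2 promoter window, chosen after its motif match was seen, shows the E2F element TTTNGCGC, searched on both strands. It is chr3:127598161-127598460 of GRCh38.p14 in RefSeq, plus strand, and the capitals mark 2 overlapping matches beginning 3 and 7 bases after the start.
MCM2: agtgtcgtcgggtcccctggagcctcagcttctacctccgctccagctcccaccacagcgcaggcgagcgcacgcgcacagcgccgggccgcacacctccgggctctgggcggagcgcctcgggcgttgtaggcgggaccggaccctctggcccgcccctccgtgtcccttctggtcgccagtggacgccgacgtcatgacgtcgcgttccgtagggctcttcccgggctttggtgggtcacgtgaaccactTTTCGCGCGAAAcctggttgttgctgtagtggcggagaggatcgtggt
MCM2, a helicase subunit, rose by 0.49. The motif was in 15 of 33 windows of the replication list (45.5%), beside 1.79% of all windows and 2.96% of those of tested genes. Among members that rose 12 of 26 windows held it (46.2%), and among the others 3 of 7 did (42.9%).

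**Figure D4:**
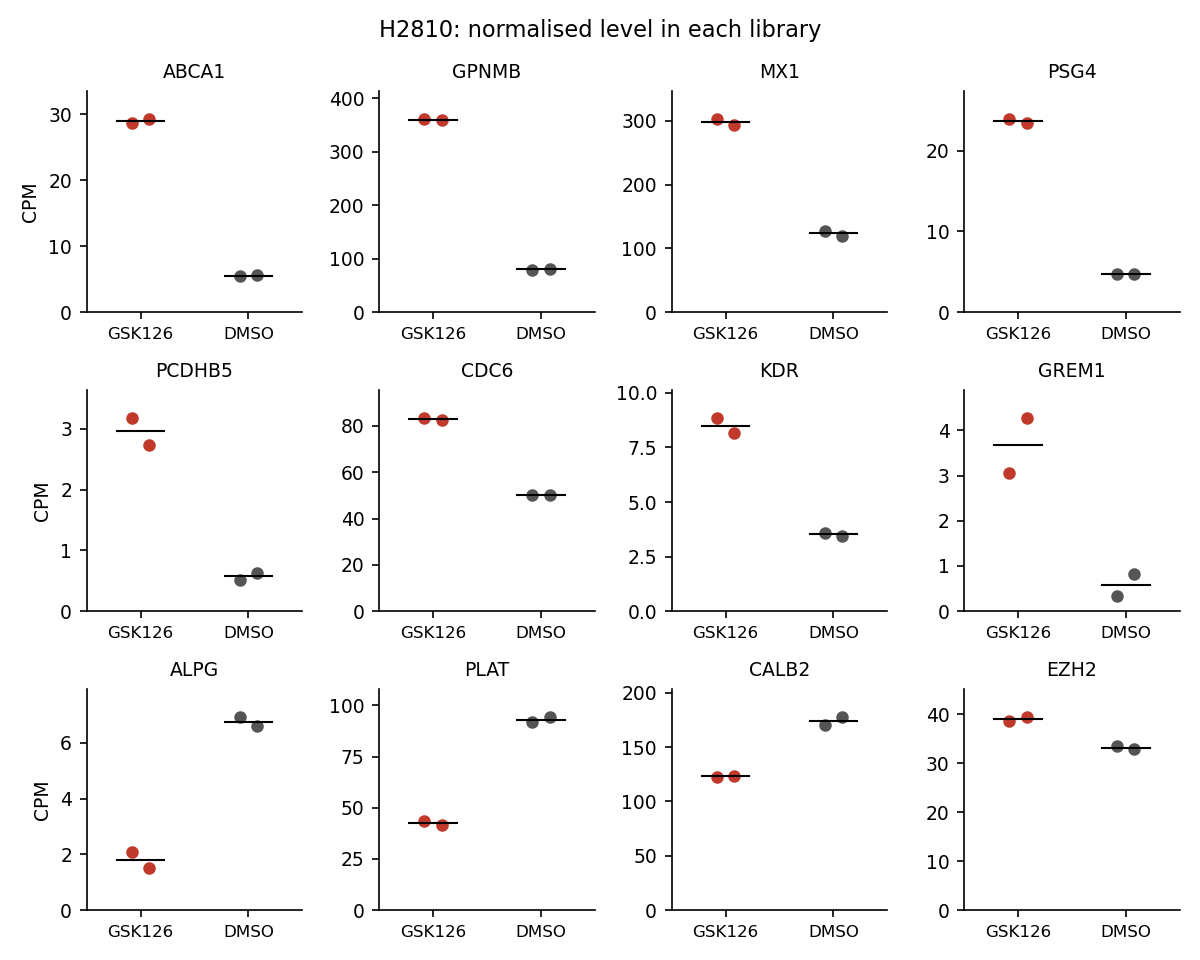
Level of 12 genes of the text in each H2810 library (CPM of the TMM-adjusted library size, y axis from 0), with GSK126 in red and DMSO in grey; each point is 1 library and each bar the mean of 2. In each panel the groups do not overlap, with ABCA1 at 28.7 and 29.2 CPM with GSK126 and at 5.42 and 5.66 CPM with DMSO.

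Among growth signalling genes, 10 of 23 MAPK output genes rose and 4 fell. The cyclin CCND1 (0.48 ± 0.04), FOSL1 (0.55 ± 0.04) and ETV1 (0.80 ± 0.08) rose, and the phosphatase DUSP1 had 142 and 144 CPM with GSK126, against 226 and 228 CPM with DMSO (-0.66 ± 0.04). The falls numbered 2 without GSK126 replicate 2. Of 25 YAP and TEAD targets, 13 fell and 7 rose, with a median of -0.12. CCN2, the connective tissue growth factor, had 667 and 676 CPM with GSK126, against 1172 and 1159 CPM with DMSO (-0.80 ± 0.03), and ANKRD1, AJUBA and AXL fell by 0.34 to 0.41 on the log2 scale. The rises numbered 3 without GSK126 replicate 2 and 4 without DMSO replicate 1.

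Among genes whose mean log2 CPM reached 1, the largest falls were smaller than the largest rises. Apart from 2 processed pseudogenes, RPL18AP3 and RPS3AP5, each of which was high in a single DMSO library and was not called without it, the largest were ALPG, the polyubiquitin pseudogene UBBP4 (-1.63 ± 0.55), INMT (-1.59 ± 0.17), MYLK3, ALPP, SEMA3C, AGFG2 (-1.13 ± 0.04), PLAT, COL8A1 and MIRLET7BHG (-1.02 ± 0.18). RPL18AP3 had 9 and 10 counts with GSK126, against 14 and 373 with DMSO, and RPS3AP5 had 8 and 7 with GSK126, against 180 and 11 with DMSO. UBBP4, a near copy of other ubiquitin genes, was not called without either GSK126 library. COL8A1, a short-chain collagen, had 688 and 689 CPM with GSK126, against 1462 and 1534 CPM with DMSO (-1.12 ± 0.04, adjusted p = 4.61e-14).

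Abundant genes of translation, the cytoskeleton and the matrix accounted for the largest losses in CPM. FN1, which encodes fibronectin and was the top gene in all 4 libraries, had 15800 and 16740 CPM with GSK126, against 19680 and 24820 CPM with DMSO (-0.45 ± 0.07). The intermediate filament VIM fell by 0.44 ± 0.04, the glycolytic enzyme GAPDH by 0.30 ± 0.03, the collagen COL3A1 by 0.29 ± 0.04, and the elongation factors EEF2 and EEF1A1 by 0.45 ± 0.03 and 0.29 ± 0.03. Of 72 cytosolic ribosomal protein genes, 69 fell and 3 were not called, with a median of -0.225 and a lowest count of 59 when 1 library was left out. Together they held 3.90% and 3.91% of counts with GSK126, against 4.46% and 4.44% with DMSO. RPLP0 had 736 and 757 CPM with GSK126, against 964 and 975 CPM with DMSO (-0.38 ± 0.03), and RPSA fell by 0.36 ± 0.03. CPM are shares of a library, so a loss of many abundant transcripts and a gain elsewhere cannot be told apart from these counts alone. Of 51 respiratory chain subunits, 11 fell, among them ATP5F1B (-0.25 ± 0.04), and 1 rose, with a median of -0.045, and 7 fell without GSK126 replicate 1. The rise was not called without either GSK126 library.

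Matrix and junction genes were mixed. Of 26 collagens, 8 fell (30.8%) and 1 rose (3.85%), COL4A1 (0.27 ± 0.05), with a median of 0.07, beside 12.9% and 16.3% of all genes. Without GSK126 replicate 1, 5 fell, and without DMSO replicate 2, 2 rose. Of 29 mesenchymal and matrix genes, 9 fell, among them the integrin ITGAV (-0.41 ± 0.04), and 7 rose, among them THBS2 (0.60 ± 0.04) and the protease MMP14 (0.47 ± 0.04). MGP, an inhibitor of calcification, had 829 and 841 CPM with GSK126, against 308 and 303 CPM with DMSO (1.45 ± 0.04). Of 23 epithelial and junction genes, 6 rose and 4 fell, with a median of 0.00, and 3 rose without GSK126 replicate 1. JUP, the plakoglobin of desmosomes, had 174 and 176 CPM with GSK126, against 72.5 and 73.7 CPM with DMSO (1.26 ± 0.04), while its partner PKP2 (-0.50 ± 0.04), MAL2 (-0.68 ± 0.04) and CLDN11 (-0.52 ± 0.04) fell.

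Mesothelial markers went down more often than up. Of 15 tested, 7 fell (46.7%) and 2 rose (13.3%), with a median of -0.26, beside 12.9% and 16.3% of all genes. Among all genes over 100 CPM 38.7% were called lower, and whether the level of the markers accounts for their falls was not tested. CALB2, which encodes calretinin, a diagnostic marker of mesothelioma, had 123 and 124 CPM with GSK126, against 170 and 177 CPM with DMSO (-0.50 ± 0.04). PDPN (0.66 ± 0.08) and GPM6A (1.12) rose, GPM6A not being called without GSK126 replicate 1, GSK126 replicate 2 or DMSO replicate 1. Of 12 keratins, 4 fell (33.3%, beside 12.9% of all genes) and the other 8 were not called, with a median of -0.315. KRT8 had 1543 and 1531 CPM with GSK126, against 2169 and 2055 CPM with DMSO (-0.46 ± 0.04), and KRT18 (-0.57 ± 0.04), KRT7 (-0.69 ± 0.11) and KRT80 (-0.31 ± 0.06) also fell.

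Stress pathways showed no common direction. Of 34 hypoxia and glycolysis genes, 12 fell, among them LDHA (-0.35 ± 0.04) and PLOD2 (-0.44 ± 0.04), and 6 rose, among them VEGFA (0.53 ± 0.06). Their shares were 35.3% lower and 17.6% higher, beside 12.9% and 16.3% of all genes and 38.7% lower among genes over 100 CPM. Of 31 ATF4 and unfolded protein response genes, 10 fell, among them HERPUD1 (-0.34 ± 0.04) and the stress sensor ERN1 (-0.57 ± 0.09), and 6 rose, among them STC2 (0.89 ± 0.07) and SLC3A2 (0.40 ± 0.04). Of 23 NRF2 targets and aldo-keto reductases, 8 rose and 8 fell, the falls led by AKR1C1 (-0.64 ± 0.04) and AKR1C2 (-0.52 ± 0.04), near copies of each other, and 5 fell without GSK126 replicate 2. Of 6 tested genes of metallothioneins and zinc export, the zinc exporter SLC30A1 rose (0.17 ± 0.05) and 2 fell, MT1E (-0.34 ± 0.08) and MT2A (-0.11 ± 0.04), calls that were lost for SLC30A1 without GSK126 replicate 1, for MT1E without GSK126 replicate 2, and for MT2A without either GSK126 library or DMSO replicate 2.

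The response of H2810 was then set against that of H2731, the line labelled Bap1 mutated, with the difference of the 2 responses tested in the same fit. In H2731, GSK126 raised 2210 genes (13.8%) and lowered 1749 (10.9%). Of the genes higher in H2810, 922 (35.3%) were also higher in H2731, which is 41.7% of those higher in H2731. Of the genes lower in H2810, 588 (28.4%) were lower in H2731 too, and 129 and 236 genes were called in opposite directions. The response was called more positive in H2810 for 1066 genes (6.66%) and more negative for 1292 (8.08%).

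Replication genes differed between the lines. Of the 39, 33 had a more positive response in H2810, and in H2731 1 rose and 9 fell. CDC6 had a log2 change of 0.72 in H2810 and 0.00 in H2731, a difference of 0.73 ± 0.06 (adjusted p = 3.21e-08). For interferon-stimulated genes, 21 of 43 responses were more positive in H2810 and 2 more negative, with 10 called higher and 5 lower in H2731. MX1 had a log2 change of 1.27 in H2810 and 0.09 in H2731, a difference of 1.18 ± 0.15. Many lysosomal genes rose in each line, 26 of 36 in H2810 and 19 in H2731, with a more positive response in H2810 for 12 and a more negative one for 4. Cholesterol synthesis genes went the other way: 10 of 26 rose in H2810 and 24 in H2731, and 17 responses were more negative in H2810. NRF2 targets rose in 8 of 23 cases in H2810 and in 19 in H2731, and ribosomal protein genes fell in 69 of 72 cases in H2810 and in 33 in H2731.

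**Figure D5:**
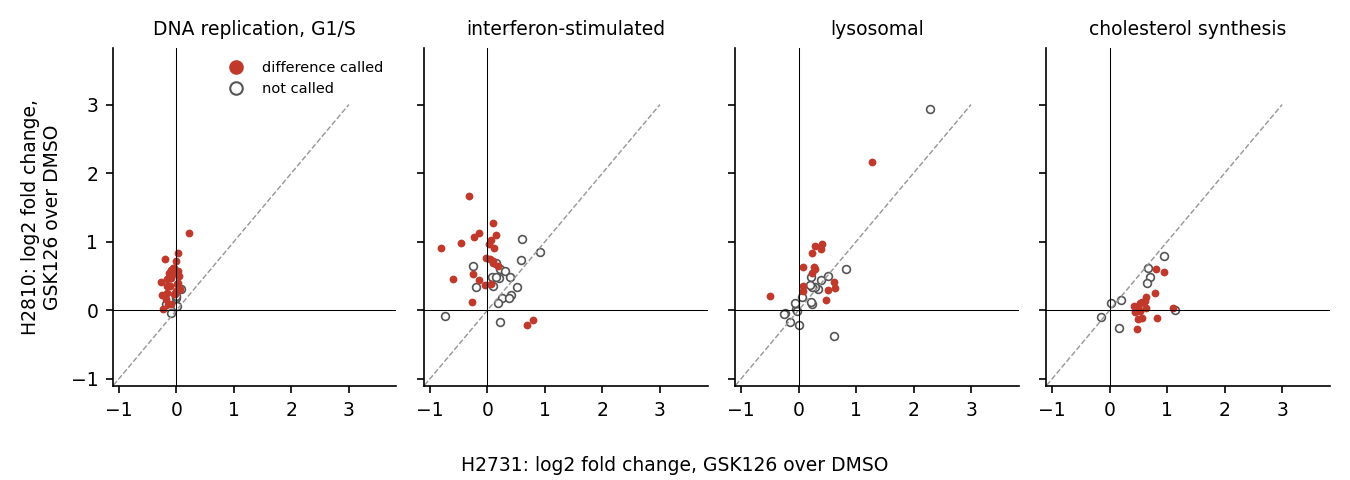
Log2 fold change with GSK126 over DMSO in H2810 (y axis) against that in H2731 (x axis) for the tested genes of 4 lists; red points had a difference between lines that was called, open points did not, and the dashed line marks equal responses. Replication genes lie above the line near 0 in H2731 (33 of 39 differences called), and cholesterol synthesis genes lie mostly below it (17 of 26 called).

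Single genes moved in opposite directions in the 2 lines. Where the mean log2 CPM over the 8 libraries reached 1, ABCA1 had the largest positive difference, 3.93 ± 0.27 (adjusted p = 3.34e-09), with a change of 2.38 in H2810 and -1.54 in H2731. SREBF1 rose by 0.81 in H2810 and fell by 0.18 in H2731, and JUP rose by 1.26 and fell by 0.37. RGS4, an inhibitor of G protein signalling, had 145 and 144 CPM with GSK126, against 194 and 188 CPM with DMSO in H2810 (-0.40 ± 0.04), but rose by 4.81 in H2731, a difference of -5.21 ± 1.24. That SE is far above the 0.04 within H2810, so the size of the H2731 change is poorly fixed. For COPZ2 and ENSG00000215861, given below, the SEs within H2810 were 0.07 and 0.08, and the same limit holds. Among other genes that fell in H2810 and rose in H2731 were IL18, PLAT, CCN2, ANKRD1 and NR2F1, with differences from -2.08 to -1.41. The other large positive differences were in ARHGEF4 (3.35 ± 0.65), PHACTR1 (3.19 ± 1.05, not called within H2810), GPC4 (2.90 ± 0.94), PLXNB3 (2.86 ± 0.83) and GPX3 (2.79 ± 0.82), which had at most 16 counts in any H2810 library. The other large negative ones were in GRAMD2A, with no counts in the GSK126 libraries and 6 and 5 counts with DMSO, ENSG00000215861 (-4.75 ± 1.37), COPZ2 (-4.62 ± 1.51), ANXA10 (-2.55 ± 0.79) and GATA6-AS1 (-2.42 ± 0.66), of which ENSG00000215861 and COPZ2 were not called within H2810. Among these, the differences in PHACTR1 and PLXNB3 were lost without any 1 of the 4 H2810 libraries, that in GPC4 without either GSK126 library or DMSO replicate 2, that in GPX3 without GSK126 replicate 2 or DMSO replicate 2, that in COPZ2 without either GSK126 library, and that in ANXA10 without GSK126 replicate 1.

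Lastly, genes called with GSK126 in H2810 were looked up in the separate BAP1 depletion of the same line, where 3576 of 15872 tested genes (22.5%) were higher and 3701 (23.3%) lower with the BAP1 shRNA. Of 2519 GSK126-higher genes tested in both experiments, 822 (32.6%) were lower with the BAP1 shRNA and 707 (28.1%) higher, beside 24.3% and 23.7% of all 14978 shared genes, and the 822 are 22.6% of those lower with the BAP1 shRNA. Among the 384 raised by GSK126 by at least 2-fold, 153 (39.8%) were lower and 60 (15.6%) higher. Of 2066 GSK126-lower genes, 649 (31.4%) were higher with the BAP1 shRNA and 529 (25.6%) lower.

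Gene groups differed in how the experiments related. Most interferon-stimulated and most replication genes were called higher in each: 41 of the interferon-stimulated genes were higher with the BAP1 shRNA, with a median of 1.13, and 35 of the replication genes were higher and 2 lower. MX1 changed by 2.59 and CDC6 by 0.68 with the BAP1 shRNA. Of lysosomal genes 26 rose with GSK126, while with the BAP1 shRNA 19 of 34 were lower and 4 higher: GPNMB changed by -0.96 and TPP1 by -0.77 there. Mitotic genes, lower with GSK126 in 17 cases, were higher with the BAP1 shRNA in 29. ALPP, PLAT and FN1 fell in both, with BAP1 shRNA changes of -2.44, -0.75 and -0.999.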

How the data were processed

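Poly-A RNA of the cells was sequenced as 65-base single-end reads, per the labels' protocols. The values used are raw counts per Ensembl gene as deposited by the authors; the submitters' processing notes list HTSeq, DESeq2, TopHat and TopHat2 2.0.12 without saying which step used them. The human genome build, annotation and strand setting are not given in the sources used here; 60418 of 60674 gene IDs were found in GENCODE v44.

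Counts of the 8 drug libraries (2 lines, GSK126 and DMSO) were fitted together with edgeR 4.0.16 in R 4.3.3 (TMM scaling, filterByExpr by group, quasi-likelihood F test, Benjamini-Hochberg adjustment over 15999 genes); the shRNA table was fitted alone over 15872 genes. SEs come from the log2 change and its F statistic. Sharing 1 fit lets all 4 groups set the spread. Only the GSK126 contrast in H2810 of the edgeR drug fit was tested on simulated data, with 200 changed genes. Alternatives were RLE scaling, other filters, DESeq2 1.42.0, limma-voom 3.58.1, the 2 groups alone, a replicate block and leaving out each H2810 library. Intervals and floors cover counting error at a 95% level only.

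The 49 gene lists, the members and the naming rule were chosen with earlier results of these data known. Named by rule were the PRC2 core, the 12 largest rises and 12 largest falls, the 8 largest gains and 8 largest losses of mean CPM, the 8 highest genes silent in DMSO, up to 4 called members of each list with the smallest p, and the 6 largest differences between lines each way; not all are printed, and some are not reported here. Other list members and genes of runs were picked after their values were seen. Promoter windows are from RefSeq (GRCh38.p14), matched by Ensembl ID, or by symbol where the ID found no match. The shRNA fit also took in the random and BAP1 shRNA libraries of a second line, MSTO-211H, which helped set its filter, scaling and spread. No result for MSTO-211H is reported, and the remaining libraries of the study are not analysed here.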

Additional observations from a re-analysis of the deposited data

Results flagged for a closer look

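Of the genes named above, 54 had a response to GSK126 that differed between H2810 and H2731 by at least 1 on the log2 scale, by a test of the difference itself (edgeR, adjusted p under 0.05), and another 96 differed by less. Values in parentheses are the log2 change in H2810 minus that in H2731.

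Interferon-stimulated genes with a more positive response in H2810 were IFI6 (1.29), ISG15 (1.44), MX1 (1.18) and MX2 (1.996). Genes with at most 16 counts in any H2810 drug library were HPD (6.44), UBE2QL1 (4.08), XK (3.62), ARHGEF4 (3.35), PHACTR1 (3.19), GPC4 (2.90), PLXNB3 (2.86) and GPX3 (2.79), and their values are fitted ones that rest on few reads. The XK difference was not called without GSK126 replicate 2 (adjusted p = 0.0641, edgeR) or without DMSO replicate 2 (0.126). Placental, retroviral and protocadherin genes were ERVFRD-1 (2.66), PSG9 (2.28), PSG4 (2.17) and PCDHB5 (2.41). Neuronal, channel and guidance genes were SCG5 (2.61), SCG2 (1.86), KCNK2 (1.67) and EFNB1 (1.28), the SCG5 difference not being called without GSK126 replicate 2 or DMSO replicate 1. The other more positive responses were ABCA1 (3.93), IGFN1 (2.29), KIF26B (2.27), PPARGC1A (2.12), GDF15 (1.91), MCOLN3 (1.84), JUP (1.63), VWA5A (1.55), PITX1 (1.44) and SFRP1 (1.11).

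More negative responses in H2810 included RGS4 (-5.21), IL18 (-2.08), PLAT (-1.85), SEMA3C (-1.62), ANKRD1 (-1.60), TGFB2 (-1.57), NR2F1 (-1.55), AKR1C1 (-1.52), CCN2 (-1.41), COL8A1 (-1.34), CALB2 (-1.12), PTX3 (-1.07), PLAGL1 (-1.06) and BIRC3 (-1.04), which were called lower in H2810 and higher in H2731. GRAMD2A had no counts with GSK126 in H2810, so its fitted difference (-5.43) is no measure of fold. The others were not called in opposite directions: ENSG00000215861 (-4.75), COPZ2 (-4.62), ANXA10 (-2.55), GATA6-AS1 (-2.42), ALPG (-1.41), MAL2 (-1.12), TNFAIP3 (-1.06), AGFG2 (-1.03) and ALPP (-1.003). In RGS4, ENSG00000215861, COPZ2 and ANXA10 the SE of the difference was far above that within H2810, so the size of these values is poorly fixed.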

How the results depend on the processing

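With DESeq2, 1570 genes were higher and 1213 lower in H2810, with 272 and 15 past 2-fold. The difference between lines was then called higher for 580 genes and lower for 821, H2731 had 1391 genes higher and 732 lower, and 2397 genes were lower with the BAP1 shRNA. Asking for at least 50 counts in 2 libraries left 288 genes higher and 16 lower past 2-fold, because it removes low genes. Leaving out 1 H2810 library gave 1825 to 2194 genes higher and 1324 to 1825 lower. RLE scaling, no filter, limma-voom and fitting only the 2 groups moved these counts by under 1.5 times, and the share of calls that were higher stayed between 53.3% and 59.1%. Fitted on its H2810 libraries alone, the shRNA experiment had 3061 genes higher and 3182 lower with the BAP1 shRNA. Of 248 genes named, 207 kept their call and direction in H2810 under every alternative, 39 lost the call under at least 1 (23 of them in DESeq2) and 2 gained one, MKI67 without DMSO replicate 2 and PHACTR1 in limma-voom. Where calls were lost, the cause was not tested.

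The labels do not say whether replicate numbers pair libraries. Deviations of same-numbered GSK126 and DMSO libraries correlated by 0.0353 in H2810 and 0.01 in H2731, which with 2 libraries per group cannot settle it. With the replicate number as a block, 2762 genes were higher and 2297 lower. Counting depth limits the calls among genes under 1 CPM.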
